A study of Homo sapiens with 3 samples.

Results

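Metallothioneins are small cysteine-rich proteins that bind zinc and copper and are made in larger amounts when cells meet an excess of zinc or cadmium, oxidants or glucocorticoids. The human genes lie side by side on the long arm of chromosome 16, and zinc induces them through MTF1, a zinc-sensing transcription factor that binds short promoter motifs called metal response elements. In the retinal pigment epithelium, a zinc-rich layer behind the photoreceptors, they are known as zinc and oxidant buffers.

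The 8 genes described here, MT1A, MT1E, MT1F, MT1G, MT1H, MT1M, MT1X and MT2A, were chosen by symbol, and each matched 1 of the 58735 genes in the count table. Counts came from 3 libraries of poly(A) RNA from RPE-1, a telomerase-immortalised human line derived from retinal pigment epithelium. The cells carried GFP-tagged CETN2, a centriole protein, and PLK4, the kinase that starts centriole duplication, under a doxycycline-inducible promoter driven by rtTA. All 3 libraries, siControl_no_induction 1 to 3, had been given a scrambled siRNA by lipid transfection and PLK4 had not been induced, so they form 1 group without a reference. The labels do not say whether the line is 1 clone or whether the libraries came from separate cultures, so their spread may be technical.

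The libraries held 46625774 to 60040029 counts, and library 1 stood apart from the other two. It had counts in 19953 genes, against 24416 and 23050 in libraries 2 and 3, and 9.69% of its counts lay on the mitochondrial genome, against 5.67% and 6.30%. Of 10 pigment epithelium markers 5 were detected, namely the transcription factors MITF (21.9 ± 1.81 CPM) and OTX2 (17.9 ± 0.781 CPM), BEST1 (9.16 ± 0.808 CPM), PMEL (1.95 ± 0.459 CPM) and SERPINF1 (1.23 ± 0.323 CPM; SD, n = 3). The visual cycle genes RPE65 and RLBP1 had 14 and 11 counts over the 3 libraries, and TYR, DCT and TTR had none. All 6 mesenchymal markers were detected, from VIM at 1518 RPKM and LGALS1 at 894 down to COL1A1 at 15.7 and COL1A2 at 0.203. Of 4 simple epithelium markers, KRT8 stood at 92.2 and KRT18 at 76.4 RPKM, while CDH1 and EPCAM had 10 and 5 counts in all and were not detected. Of 6 markers of other cells only neuronal SYT1 (13.9 RPKM) and leukocyte PTPRC (0.225) were detected. The markers LGALS1 and PMEL were lowest, and SERPINF1 and PTPRC highest, in library 1, with ratios of highest to lowest CPM of 1.57 to 1.92. CPM, the usual depth-scaled count, was taken on the library total multiplied by its TMM factor, and RPKM is CPM per kb of annotated exon.

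Promoters show what the members share in sequence, independent of their counts. RefSeq promoters of GRCh38.p14 matched 3 of the 8 members: MT2A, the most abundant member, MT1X, of low abundance, and MT1H, without a count. RefSeq places their starts at positions 56608584, 56682470 and 56669814. GENCODE 29, from which the gene spans given later come, includes transcripts of MT2A and MT1X that begin further upstream. The whole 250-base window of MT2A, and part of that of MT1X, therefore lies inside those spans. The core of the metal response element was searched on both strands as TGCACNC or TGCGCNC in the 250 bases before the RefSeq start, and its matches are in capitals in the stretches below, all on the plus strand of chromosome 16 and written 5′ to 3′. For MT2A, 3 stretches of 30 bases at chr16:56608408-56608437, chr16:56608488-56608517 and chr16:56608522-56608551 hold 4 of its matches. For MT1X, the stretch is chr16:56682220-56682423, and for MT1H it is chr16:56669564-56669813.
MT2A, first stretch: cgcggcccGTGTGCAgagccgggTGCGCCC
MT2A, second stretch: cgcggggcGTGTGCAggcagcgcccggccg
MT2A, last stretch: ggggctttTGCACTCgtcccggctctttct
MT1X: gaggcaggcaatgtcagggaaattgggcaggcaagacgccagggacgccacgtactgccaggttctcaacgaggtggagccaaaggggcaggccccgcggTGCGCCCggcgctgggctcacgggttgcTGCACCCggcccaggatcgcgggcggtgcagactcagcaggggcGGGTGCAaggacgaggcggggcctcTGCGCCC
MT1H: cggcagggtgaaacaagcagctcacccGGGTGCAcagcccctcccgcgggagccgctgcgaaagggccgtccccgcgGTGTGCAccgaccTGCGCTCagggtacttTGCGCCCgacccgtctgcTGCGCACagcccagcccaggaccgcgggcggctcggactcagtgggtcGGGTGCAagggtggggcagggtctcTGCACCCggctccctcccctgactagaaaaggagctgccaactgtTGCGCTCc

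In the 250 bases before the RefSeq start, MT2A held 7 matches to the metal response element core, MT1X held 4 and MT1H held 8. Of 35116 RefSeq promoters of the same length, 24.8% held at least 1 match, 0.370% at least 4 and 0.0313% at least 7. The TATA box letters TATAAA, present in 10.7% of promoters, stood 29 bases before the RefSeq start of MT2A and 30 bases before that of MT1X, and had no match in the window of MT1H. The same letters stood 30 bases before the start of MT1B, which had 0 counts, and 29 bases before that of MT4, which had 2. The GC box letters GGGCGG matched 2 times each in MT2A and MT1X and once in MT1H, and 42.6% of promoters held a match. TGACNNNGC, the core of the antioxidant response element, matched once each in MT2A and MT1X and not in the window of MT1H, against 10.9% of promoters. Matches are descriptions of letters, not measured binding sites.

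Of the 8 metallothioneins, 4 were detected, meaning 1 CPM or more in every library (MT2A, MT1E, MT1X and MT1M), while 57.7% of 19951 protein-coding genes reached that level. MT2A and MT1E were abundant, MT1X and MT1M were close to the median detected protein-coding gene in RPKM, MT1F lay below detection, and MT1G, MT1A and MT1H had 2, 0 and 0 counts in all. The family together held 816, 793 and 748 CPM in libraries 1, 2 and 3 (785 ± 34.5 CPM, SD, n = 3), a mean of 0.0785% of counts. MT2A and MT1E made up 98.3%, 98.2% and 98.1% of the counts of the family.

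**Figure D1:**
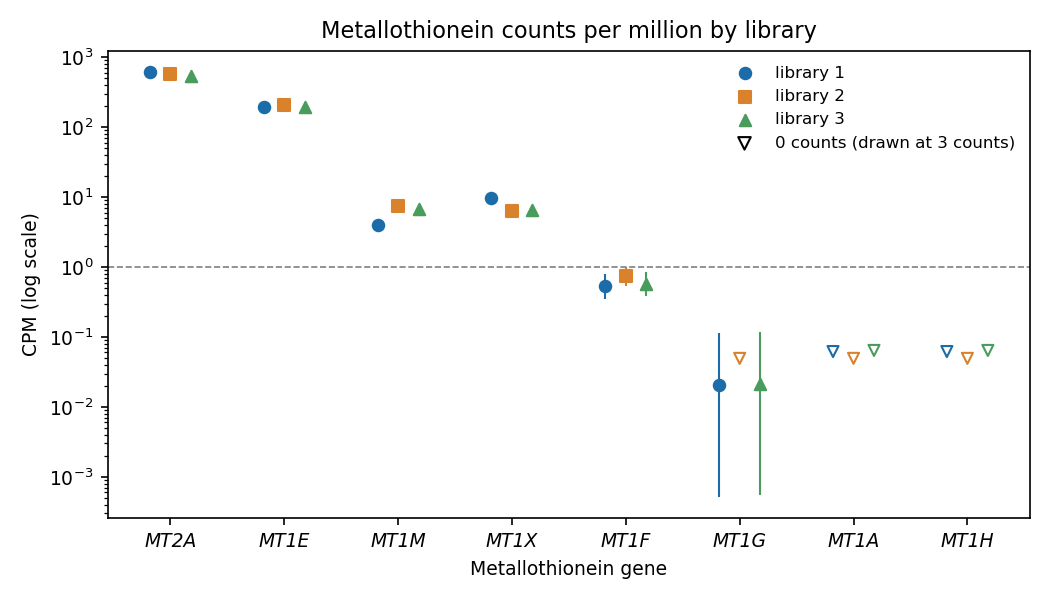
CPM (log scale) of the 8 metallothioneins in each of the 3 libraries, with exact Poisson 95% intervals of the count as vertical lines, open triangles at 3 counts where a library had 0, and a dashed line at the detection limit of 1 CPM. MT2A and MT1E stand above 190 CPM, MT1M and MT1X between 3.98 and 9.70 CPM, and the other members below the limit.

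MT2A, the main metallothionein of most human tissues, was the highest member. It had 29454, 34711 and 25154 counts in libraries 1, 2 and 3, which is 607, 571 and 538 CPM (572 ± 34.6 CPM, SD, n = 3). Library 1 was the highest and library 3 the lowest, with a ratio of 1.13 between them. On the RPKM scale MT2A averaged 440 ± 26.6 and ranked 50 among 12615 detected genes. The median detected protein-coding gene stood at 6.09 RPKM. MT2A (ENSG00000125148) lies on the plus strand of hg38 at chr16:56608199-56609497 and has 5 annotated transcripts.

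MT1E, one of the MT1 isoforms that arose by duplication, came next. It had 9452, 12572 and 9184 counts, or 195, 207 and 196 CPM (199 ± 6.64 CPM, SD, n = 3). Its libraries lay closer together than those of MT2A, with library 2 the highest and a ratio of 1.06 between highest and lowest. MT1E averaged 189 ± 6.32 RPKM and ranked 141 among detected genes. The gene (ENSG00000169715, plus strand) occupies chr16:56625475-56627112, downstream of MT2A.

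MT1X and MT1M were present at low level. MT1X had 471, 383 and 310 counts, or 9.70, 6.30 and 6.63 CPM (7.54 ± 1.88 CPM, SD, n = 3), and was highest in library 1. MT1M had 193, 447 and 317 counts, or 3.98, 7.36 and 6.78 CPM (6.04 ± 1.81 CPM, SD, n = 3), and was lowest in library 1. Library 1 therefore lay on opposite sides of the other two for these 2 genes, and in neither gene did it overlap them. On the RPKM scale MT1M averaged 6.41 ± 1.92 and MT1X 4.26 ± 1.06. MT1M (ENSG00000205364) lies at chr16:56632233-56633986 and MT1X (ENSG00000187193) at chr16:56682424-56684196, both on the plus strand. The noncoding gene AC026461.1, with 0 counts in each library, shares 18.1% of the exon length of MT1X on the same strand, and how the authors assigned reads that overlap 2 genes is not given.

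MT1F, another MT1 isoform, had 26, 45 and 27 counts, or 0.536, 0.741 and 0.577 CPM (0.618 ± 0.108 CPM, SD, n = 3). The 95% intervals of its counts overlapped in all 3 libraries, from 0.350 to 0.785 CPM in library 1, from 0.540 to 0.991 CPM in library 2 and from 0.380 to 0.840 CPM in library 3. MT1G, the only member on the minus strand, had 1 count in library 1, 0 in library 2 and 1 in library 3. MT1A and MT1H had 0 counts in each library, which allows up to 0.0618, 0.0494 and 0.0641 CPM in libraries 1, 2 and 3 by a limit of 3 counts per library. With that limit, MT2A stood at least 2556-fold above MT1A and at least 4666-fold above MT1H per unit of exon length. Such limits and intervals account for counting error alone, as 1 molecule can give several reads. MT1F lies at chr16:56657694-56660698, MT1G at chr16:56666731-56668065, MT1A at chr16:56638666-56640087 and MT1H at chr16:56669814-56671129.

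Neighbours in the order of mean RPKM over these libraries were compared within each library as RPKM ratios with a pseudocount of 0.5 count. As the order came from the same values, the direction of each step is not independent of it. MT2A exceeded MT1E by 2.32-fold (log2 ratio 1.22 ± 0.10, SD over libraries), MT1E exceeded MT1M by 30.5-fold (log2 ratio in libraries 1, 2 and 3 of 5.45, 4.65 and 4.70), and MT1X exceeded MT1F by 12.7-fold (4.24, 3.17 and 3.59). Each of these 3 steps had the same direction in 3 of 3 libraries and RPKM ranges that did not overlap, with an exact two-sided sign-flip p of 0.25, the smallest that 3 libraries allow. MT1M and MT1X did not differ beyond their spread. Their log2 ratio was -0.37 in library 1 and 1.14 and 0.94 in libraries 2 and 3 (exact sign-flip p = 0.5). Without length, MT1X had more counts (log2 ratio of MT1M over MT1X -0.34), and with the longest protein-coding transcript of each gene the ratio was -0.97, so the order of this pair depended on the length used.

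MT2A and MT1E have nearly distinct reads in the annotation. Of all stretches of 100 bases in their annotated transcripts, 0% occurred in transcripts of another gene. For stretches of 50 bases, 3.02% of those of MT2A and 7.10% of those of MT1E were shared, in each case with other metallothioneins. The share at 50 bases was 1.22% for MT1F, 5.76% for MT1A, 9.87% for MT1M, 15.8% for MT1H, 16.5% for MT1G and 18.3% for MT1X, and most of the last was the stretch in common with AC026461.1. At 100 bases it was 11.3% for MT1X, 1.39% for MT1H and 0% for the other members. Neither the read length nor what was done with multiply aligned reads is stated, so counts of the rarer isoforms are uncertain.

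The spread of each gene between libraries was set against counting error with a chi-square test over the 16293 genes averaging 10 counts or more, adjusted by Benjamini-Hochberg. Of the 5 metallothioneins tested, 4 were called at an adjusted p under 0.05, and 68.6% of all tested genes were. The adjusted p was 8.68e-43 for MT2A, 1.23e-05 for MT1E, 5.94e-12 for MT1M and 1.62e-10 for MT1X, against 0.401 for MT1F. MT1G, MT1A and MT1H had too few counts to be tested. MT2A and MT1E had the most counts of the members, and their ratios of highest to lowest CPM, 1.13 and 1.06, were below the median of 1.25 over tested genes. MT1M and MT1X had wider ratios of 1.85 and 1.54, and 85.7% and 76.6% of tested genes had a smaller one.

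When each gene was allowed 5% of variation beyond counting (a coefficient of variation of 0.05), 2 of the 5 members were called. They were MT1M (adjusted p = 5.15e-06 by the chi-square test) and MT1X (6.44e-05), and 32.7% of all tested genes were called. That allowance was below the variation beyond counting that edgeR fitted to these libraries. Its common coefficient was 0.135, and the values fitted at the levels of MT1M and MT1X were 0.160 and 0.150. Larger allowances were not tested. With libraries 2 and 3 alone, 2 of the 5 were called, now MT2A (adjusted p = 7.65e-12) and MT1E (9.14e-04), and 28.1% of 16321 tested genes were. In libraries 2 and 3 alone, MT1M and MT1X differed by ratios of 1.09 and 1.05, and their adjusted p was 0.437 and 0.683. Without library 2 the call of MT1E was lost as well (adjusted p = 0.663).

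**Figure D2:**
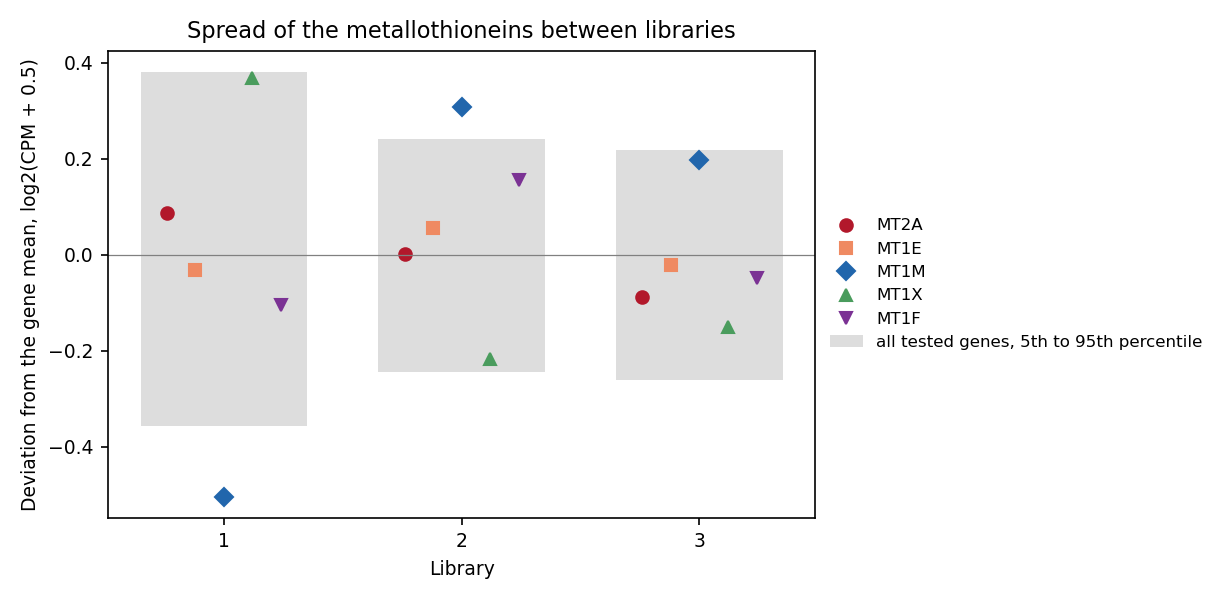
Deviation of each metallothionein with counts in every library from its own mean, in log2(CPM + 0.5), for the 3 libraries. Grey bars span the 5th to 95th percentile of all 16293 tested genes. MT1M lies at -0.50 in library 1, below the bar, and MT1X at 0.37 near its upper end, while MT2A and MT1E stay within 0.09 of 0 in each library.

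The proportions within the family differed between libraries, and the difference lay in library 1. A chi-square test of the counts of the 5 members by library does not depend on library size and allows for counting error only. This chi-square test gave p = 7.22e-35 (statistic per degree of freedom 22.6). Library 1 also stood apart over all tested genes. The chi-square statistic of counts against scaled library sizes, per degree of freedom, was 99.6 between libraries 1 and 2, 64.7 between 1 and 3 and 10.1 between 2 and 3 for all genes, and 34.4, 52.4 and 14.3 for the members. With libraries 2 and 3 alone, the chi-square test of the proportions within the family gave p = 0.561 (statistic per degree of freedom 0.746). MT2A held 75.7% of the counts of MT2A and MT1E in library 1 (exact binomial 95% interval 75.3 to 76.1%), against 73.4% (73.0 to 73.8%) and 73.3% (72.8 to 73.7%) in libraries 2 and 3. MT1M held 29.1% (25.6 to 32.7%) of the counts of MT1M and MT1X in library 1, against 53.9% (50.4 to 57.3%) and 50.6% (46.6 to 54.5%) in libraries 2 and 3. In both pairs the interval of library 1 was apart from those of the other libraries, whose own intervals overlapped. The larger mitochondrial share and the smaller number of genes with counts in library 1 go with these values, and their part in them was not tested.

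**Figure D3:**
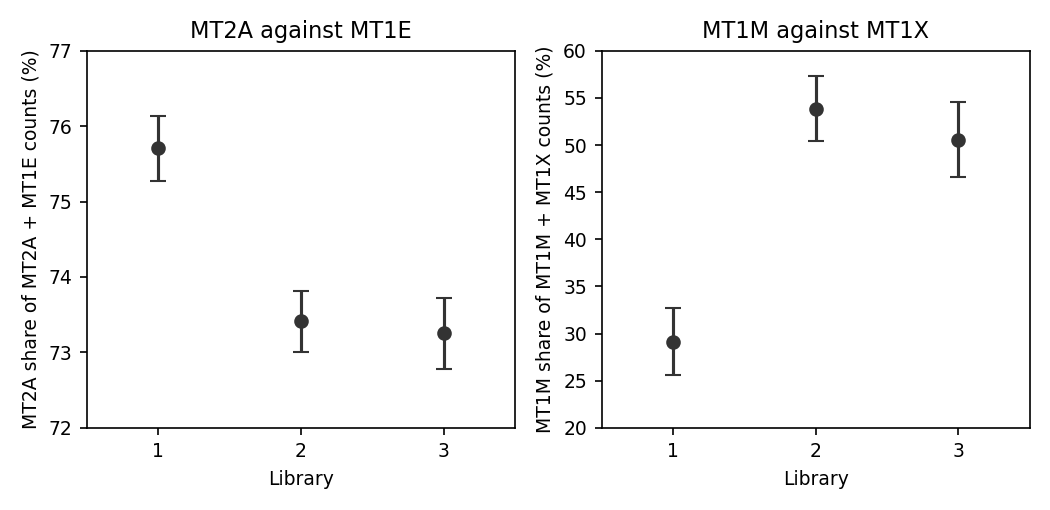
Share of MT2A among the counts of MT2A and MT1E (left) and share of MT1M among the counts of MT1M and MT1X (right) by library, in percent, with exact binomial 95% intervals; neither vertical axis starts at 0. Library 1 stands at 75.7% and 29.1%, apart from libraries 2 and 3 in both panels.

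Across the cluster, metallothionein genes without counts lay between expressed ones. In genomic order, MT4 and MT3, isoforms known from stratified epithelium and from brain, had 2 and 0 counts over the 3 libraries. MT2A, MT1E and MT1M followed at 440, 189 and 6.41 RPKM. MT1A and MT1B had no counts, MT1F stood at 0.327 RPKM, MT1G and MT1H at 2 and 0 counts, and MT1X, at the far end, at 4.26 RPKM. Of the protein-coding genes described within 200 kb on either side, NUDT21, of the 3′ end processing machinery, stood at 29.5 ± 1.49 RPKM, OGFOD1 at 12.6 ± 0.382, the BBSome gene BBS2 at 5.03 ± 0.184 and the nuclear pore gene NUP93 at 5.07 ± 0.559 (SD, n = 3). SLC12A3, a kidney salt transporter gene, had 10 counts in all. MT2A stood above every other protein-coding gene drawn from the region.

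**Figure D4:**
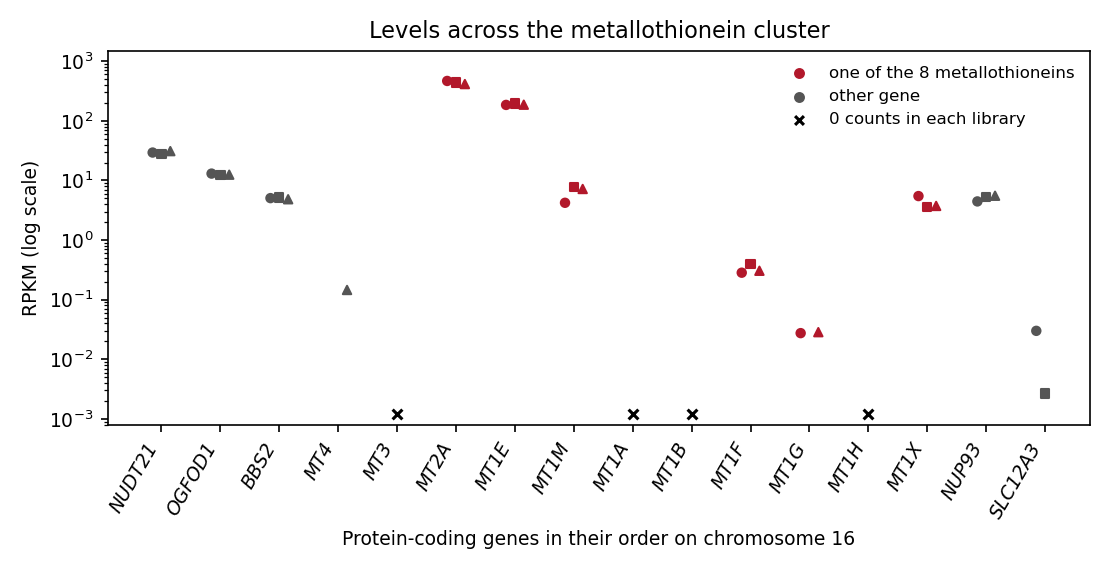
RPKM (log scale) of the protein-coding genes from NUDT21 to SLC12A3 in their order on chromosome 16, with 1 point per library; libraries without a count are not drawn, and a cross marks genes with 0 counts in each library. MT2A and MT1E stand at 440 and 189 RPKM, and MT1A, MT1B, MT1H and MT3 have no counts.

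The table held 13 further genes and pseudogenes of the family. Among these, 9 had 0 counts in each library, including MT1B, MT3 and the pseudogenes MT1L, MT1JP, MT1DP and MT1CP inside the cluster. The intronless copies MT1P3 on chromosome 20 and MT2P1 on chromosome 4 had more counts than MT1G, MT1A or MT1H, with 68, 40 and 44 counts for MT1P3 and 43, 29 and 20 for MT2P1. Both were highest in library 1 and were called by the chi-square test (adjusted p = 0.000956 and 0.00855). MT2P1 had 1.46, 0.835 and 0.795 counts per 1000 counts of MT2A in libraries 1, 2 and 3. At 50 bases, 15.7% of the annotated stretches of MT2P1 occurred in another gene, nearly all in MT2A, and 58.6% of those of MT1P3 did. At 100 bases 0% was shared for both copies, and the gene with which MT1P3 shared most stretches of 50 bases was MT1JP, which had 0 counts. Whether reads of other family genes were placed on these copies was not tested. MT1XP1 had 6 counts in all.

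The factor and transporters that work with metallothioneins were mostly detected. MTF1, the zinc sensor, stood at 28.5, 31.0 and 29.5 CPM (29.6 ± 1.27 CPM, 3.69 RPKM, SD, n = 3), and the chi-square test did not call it (adjusted p = 0.072). All 7 genes of the list named metal-responsive transcription (MTF1, MTF2, SP1, USF1, USF2, NFE2L2 and CTCF) were detected. Being listed does not mean that a gene acts on metallothioneins, which was not tested. NFE2L2, which encodes the oxidant-responsive factor NRF2 (21.96 RPKM), and USF1 (19.0) were the highest. Of these 7, 4 were called, 2 with the extra variation of 5% and 0 without library 1, against 68.6%, 32.7% and 28.1% of all tested genes. Of the 10 genes of the ZnT family, listed as zinc exporters, 7 were detected (median 7.88 RPKM). Of the 7 tested, 6 were called, 0 with the extra variation and 3 without library 1. SLC30A9 (14.2 RPKM) and SLC30A1 (10.1), the plasma membrane exporter that MTF1 also induces, were the highest. SLC30A1 had 50.6, 55.8 and 59.6 CPM, lowest in library 1, and its call was lost with the extra variation (adjusted p = 0.196 by the chi-square test). MT1M was also lowest in library 1, while MT2A and MT1X were highest there. MT1E was lowest in library 1 only narrowly (195 CPM, against 196 in library 3). So was MT1F (0.536 CPM, against 0.577 in library 3), which was not called.

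Of the 14 ZIP genes, which import zinc, 11 were detected (median 8.02 RPKM), led by the endoplasmic reticulum transporter SLC39A7 (69.9 RPKM) and by SLC39A6 (42.2). Of the 11 tested, 10 were called, 3 with the extra variation and 7 without library 1. Over all tested genes these shares were 68.6%, 32.7% and 28.1%. Of 14 genes for copper handling 12 were detected (median 6.26 RPKM), with the zinc- and copper-binding superoxide dismutase SOD1 (103 RPKM) and the metalloreductase STEAP3 (28.2) highest. SCO2 is listed under 2 identifiers, and of the 13 rows tested 12 were called, 4 with the extra variation and 2 without library 1. Among the called genes, STEAP2 ranged from 9.43 to 14.2 CPM, highest in library 1, and 1 of the SCO2 rows from 0.453 to 0.962 CPM, lowest there. That SCO2 row was below detection and shares 83.9% of its exon length on the same strand with the other identifier. Against these lists, MT2A and MT1E were both higher in RPKM than every listed gene, while MT1M and MT1X lay below the medians of the zinc lists. With the length of the longest protein-coding transcript, MT1X stood at 14.02 RPKM, above the medians of 8.38 for ZnT and 10.2 for ZIP genes, and MT1M at 7.28, below both.

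Genes that respond to the same stimuli did not share 1 pattern. Of 12 metal and oxidant stress genes 11 were detected (median 8.84 RPKM) and 10 of 12 were called, 6 of them lowest and 3 highest in library 1. With the extra variation 5 were called, and without library 1 6 were. Over all tested genes 68.6% were called, 32.7% with the extra variation and 28.1% without library 1. NQO1, an NRF2 target, was the highest (162 RPKM) and stood at 383, 581 and 613 CPM, lowest in library 1, followed by the thioredoxin reductase gene TXNRD1 (79.3 RPKM). SRXN1, another NRF2 target, ranged from 2.62 CPM in library 1 to 4.02 in library 3. The gene AL121758.1 shares 85.0% of the exon length of SRXN1 on the same strand. Of 11 genes of the glucocorticoid list 10 were detected (median 6.34 RPKM), and the 8 called of 10 tested were all highest in library 1. With the extra variation 3 were called, and without library 1 4 were. Of the metallothioneins, MT2A and MT1X were highest in library 1 and MT1M was lowest. MT1E and MT1F were lowest there only narrowly, as given above. The 8 genes included the phosphatase gene DUSP1 (50.3 RPKM), ERRFI1, with 172, 99.7 and 98.0 CPM, and the kinase gene SGK1, with 100.1, 57.7 and 63.8 CPM. Of all 11182 genes called, 40.6% were highest and 48.7% lowest in library 1. DUSP1, ERRFI1 and SGK1 are known to respond to other stimuli too, growth factors among them.

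**Figure D5:**
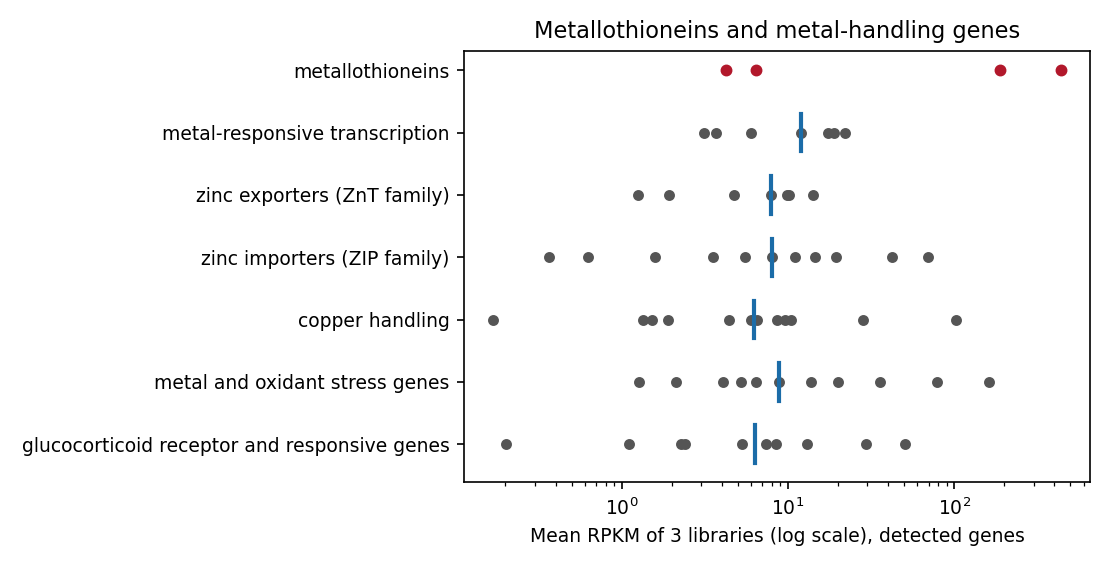
Mean RPKM over the 3 libraries (log scale) of the detected metallothioneins and of the detected genes of 6 lists, with 1 point per gene and a blue line at the median of each list. MT2A and MT1E, at 440 and 189 RPKM, lie to the right of every other gene drawn, and MT1M and MT1X, at 6.41 and 4.26, lie among the listed genes.

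By the Euclidean distance between deviations in log2(CPM + 0.5) over the 3 libraries, the 5 genes nearest to MT2A among 7534 protein-coding genes averaging 1000 counts or more were SH3BGRL3, TBC1D17, ZNF865, KXD1 and RBM19. Their distances ran from 0.00533 to 0.00745, and each was highest in library 1 and lowest in library 3. SH3BGRL3, a small thioredoxin-like protein gene, had 576, 539 and 509 CPM. MT1E lay at a distance of 0.147, with 27.8% of those genes closer, and MT1M at 0.724, with 99.8% closer. Likeness over 3 libraries of 1 state is a description only.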

How the data were processed

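RNA-seq of the 3 siControl_no_induction libraries was analysed from the table of raw gene counts deposited by the authors. The submitters' processing notes list cutadapt 1.16, STAR 2.5.2a, featureCounts 1.6.2 and hg38, with no role or setting. Which annotation was counted, with or without strand, and what was done with multiply aligned reads is not given in the sources used here. A further 6 per-sample columns without a matching label were not used.

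Totals of 46625774 to 60040029 counts were scaled by TMM factors (edgeR 4.0.16 in R 4.3.3). RPKM values used the union of exons in GENCODE 29, whose IDs matched all 58735 genes. A gene was detected at a CPM of at least 1 in each library. Spread was tested by a chi-square test with 2 degrees of freedom against the scaled sizes, for genes averaging 10 counts or more. The p-values were adjusted by Benjamini-Hochberg with a threshold of 0.05. The test was checked on simulated counts with counting error alone, apart from some genes raised in library 1. That check does not cover counts with wider spread, as in these libraries. The test measures the spread between these libraries, which may be technical. Family composition was tested by a chi-square test of members by libraries, and neighbours in the order of levels by an exact sign-flip test. Shares have exact binomial and counts exact Poisson 95% intervals, and 0 counts a limit of 3 counts. Intervals and limits cover counting error only.

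Alternatives were DESeq2 1.42.0 size factors, raw totals, an extra coefficient of variation, other lengths, count limits and pseudocounts, and leaving out each library. The members and gene lists were chosen with earlier results of these data known. Named genes were the members, the other family genes, protein-coding genes within 200 kb (1 of them is not reported here), the 2 highest detected genes of each list, called list genes with a ratio of at least 1.5, and the 5 genes nearest to MT2A in pattern. MTF1, the names of the genes listed with it and the levels of SLC30A1 by library were added after their values were seen. So were FKBP5, TSC22D3, PER1, CRISPLD2 and the markers beyond this rule.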

Additional observations from a re-analysis of the deposited data

How the results depend on the processing

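No paired analysis was possible because the labels give only 1 group. With DESeq2 size factors and with raw totals the 4 calls of spread and the 4 detected members were the same in number. With an extra coefficient of variation of 0.05, 2 members were called, and leaving out 1 library in turn gave 2 to 4, with 2 in libraries 2 and 3 alone. The composition statistic per degree of freedom ran from 0.746 to 38.4 over the same omissions, and without library 1 the chi-square test no longer passed the threshold (p = 0.561); the cause was not tested. The metallothionein sum was 847 CPM with mitochondrial counts left out of the library sizes, an alternative chosen after seeing the data, against 785 CPM, and leaving out 1 library in turn gave 770 to 804 CPM. The log2 ratio of MT1M over MT1X reversed to -0.34 without length and, in an alternative chosen after seeing the data, to -0.97 with the longest protein-coding transcript, by construction through the lengths. With a limit of 0.5 CPM, 5 members were detected, MT1F being the one added. MT1G, MT1A and MT1H had too few counts for the test of spread, and MT1F, with 98 counts in all, was tested and not called.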
